A study of Homo sapiens with 9 samples.

Results

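Ribosome biogenesis genes encode the machinery that builds ribosomes in the nucleolus, and 50 of them were followed gene by gene in a B cell leukemia line with its MEF2C enhancer targeted. The members were given by symbol, in a list drawn up with earlier results of these data known, and were matched in GENCODE release 44 to 50 of the 62700 genes in the deposited tables. They were divided by step into 7 genes of rRNA transcription, 8 of the small nucleolar ribonucleoprotein (snoRNP) particles, 19 of the small subunit and 16 of the large subunit. All 50 were among the 14436 genes that passed the filter on low counts, and no member had an estimated count under 297 in any library, so the filter removed none.

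RNA was sequenced from HAL-01, a B-ALL line with the t(17;19) translocation that produces the fusion transcription factor TCF3::HLF, in cells that stably express Cas9 and GFP. The cells carried sgRNA_96 or sgRNA_97, both of which target the TCF3::HLF-bound MEF2C enhancer and together form the MEF2C-enhancer KO class, or SCR1, a scrambled guide. Each guide had 3 replicates, numbered 1, 3 and 4, and the cells of all 9 libraries were collected on day 13, counted from transduction in the study's methods. The labels do not say whether the replicates were separate cultures or what share of the cells was edited, so p-values measure the spread between these libraries, which may be technical.

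In textbook terms, RNA polymerase I copies the rDNA into a long precursor, which the small subunit processome folds and cuts. Box C/D snoRNPs methylate the precursor and box H/ACA snoRNPs convert uridines in it to pseudouridine, while separate sets of factors assemble the small and the large subunit. These genes are expressed in all growing cells, and many are known targets of the transcription factor MYC, which binds the palindromic E-box CACGTG.

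The libraries held 15212462 to 29777361 estimated counts, with the deepest library in SCR1. Expression is given as CPM, read counts brought to a common library size by TMM scaling, which compares 1 gene between libraries, and as TPM, which also corrects for transcript length and compares genes. All 11 B lineage markers were at or above 1 TPM in every library, whereas CD2 and the CD3 chains of T cells, ELANE, CD14 and LYZ of myeloid cells, ALAS2 and 3 globins of erythroid cells and 3 collagens, DCN and LUM of stroma were below 1 TPM in every library. The myeloid markers MPO and CSF1R, the erythroid marker EPOR and the stroma marker PDGFRB were at or above 1 TPM in every library. The myeloid marker CEBPE was so in every KO library but not in every SCR1 library. Summed over its markers, each other list gave no more than 92.0 TPM in a library, against at least 4685 TPM for the B lineage. The T cell list, in which CD247 and TRAC were at or above 1 TPM, summed to 86.2 to 92.0 TPM in SCR1 and 69.7 to 82.6 TPM in KO, and its part in the results was not tested. MEF2C itself, which that enhancer contacts, was at 536 to 560 CPM in SCR1 and at 495 to 553 CPM in KO, and the log2 fold change of -0.12 (SE 0.04) did not pass the test used below (adjusted p 0.0620 in edgeR). The study, which used DESeq2, reported MEF2C as significantly lower in its RNA-seq of the enhancer KO. It also reported a decrease of MEF2C RNA by RT-qPCR and of the protein by Western blot. Replicates 1 of both KO guides stood apart from the other libraries on the second principal component over all genes, with scores of 30.8 for sgRNA_96 and -34.0 for sgRNA_97 against -4.60 to 9.39 in the other 7 libraries. Mitochondrial genes took 6.22% to 7.01% of the counts in KO libraries and 5.97% to 6.35% in SCR1, and their part in the results below was not tested.

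The E-box is printed here because it was found in a larger share of the members' promoters than of all promoters. RefSeq promoter windows of 300 bases (GRCh38.p14, 250 bases before and 50 after the annotated start) were matched by symbol for 42 of the 50 members. CACGTG, which reads the same on both strands, was found in 20 of these 42 genes (47.6%), against 8.77% of all 27305 genes with a window, 12.5% of the 10109 tested genes with one and 25.0% of 112 other ribosome biogenesis genes. The 23 copies lay between base -203 and base 35, counted from 0 at the start, with a median position of 6, and 15 began at or after the start. Matches are letters in a window and do not show that a factor binds there.

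The windows below are those of the 7 members with the motif that were lower in KO, each with 12 bases on both sides of the motif, 5′ to 3′ on the gene's strand, with CACGTG in capitals. IMP4 has a pair of copies.
MRTO4 (chr1:19251807-19251836, plus strand): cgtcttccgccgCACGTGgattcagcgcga
RRP9 (chr3:51941892-51941921, minus strand): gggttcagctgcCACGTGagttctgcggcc
IMP4, distal (chr2:130342682-130342711, plus strand): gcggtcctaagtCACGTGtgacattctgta
IMP4, proximal (chr2:130342900-130342929, plus strand): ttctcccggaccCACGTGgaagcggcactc
BYSL (chr6:41921515-41921544, plus strand): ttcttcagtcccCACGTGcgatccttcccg
UTP4 (chr16:69132621-69132650, plus strand): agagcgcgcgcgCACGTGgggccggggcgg
FBL (chr19:39846356-39846385, minus strand): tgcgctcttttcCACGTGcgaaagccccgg
GAR1 (chr4:109815781-109815810, plus strand): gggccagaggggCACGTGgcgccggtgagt
The distal copy of IMP4 is the only one of these that lies far from the start, and the 250 bases before the start are given to place it.
IMP4 upstream (chr2:130342647-130342896, plus strand): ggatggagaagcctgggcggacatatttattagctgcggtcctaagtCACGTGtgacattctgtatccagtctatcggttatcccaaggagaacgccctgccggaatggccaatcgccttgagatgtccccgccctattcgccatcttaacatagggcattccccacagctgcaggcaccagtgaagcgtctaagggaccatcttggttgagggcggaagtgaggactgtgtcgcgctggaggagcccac

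Levels of the members in control cells spanned a wide range. In SCR1, NPM1, the nucleolar histone and ribosome chaperone, was highest at 1503 TPM, followed by NCL (nucleolin) at 1010 TPM, FBL (fibrillarin, the box C/D methyltransferase) at 397 TPM and its partner NOP56 at 352 TPM. NHP2, a core protein of box H/ACA snoRNPs, came next at 266 TPM. The ranges of the 3 SCR1 libraries did not overlap between any neighbours among these 5 genes, nor between NHP2 and the gene below it, NOP10. The lowest were URB2 at 11.7 TPM, NOC3L at 8.68 TPM and UTP20 at 6.60 TPM, whose ranges did not overlap either. From IMP4 at 94.1 TPM down to RRS1 at 32.8 TPM, every pair of neighbours overlapped, so the order there is not resolved.

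**Figure D1:**
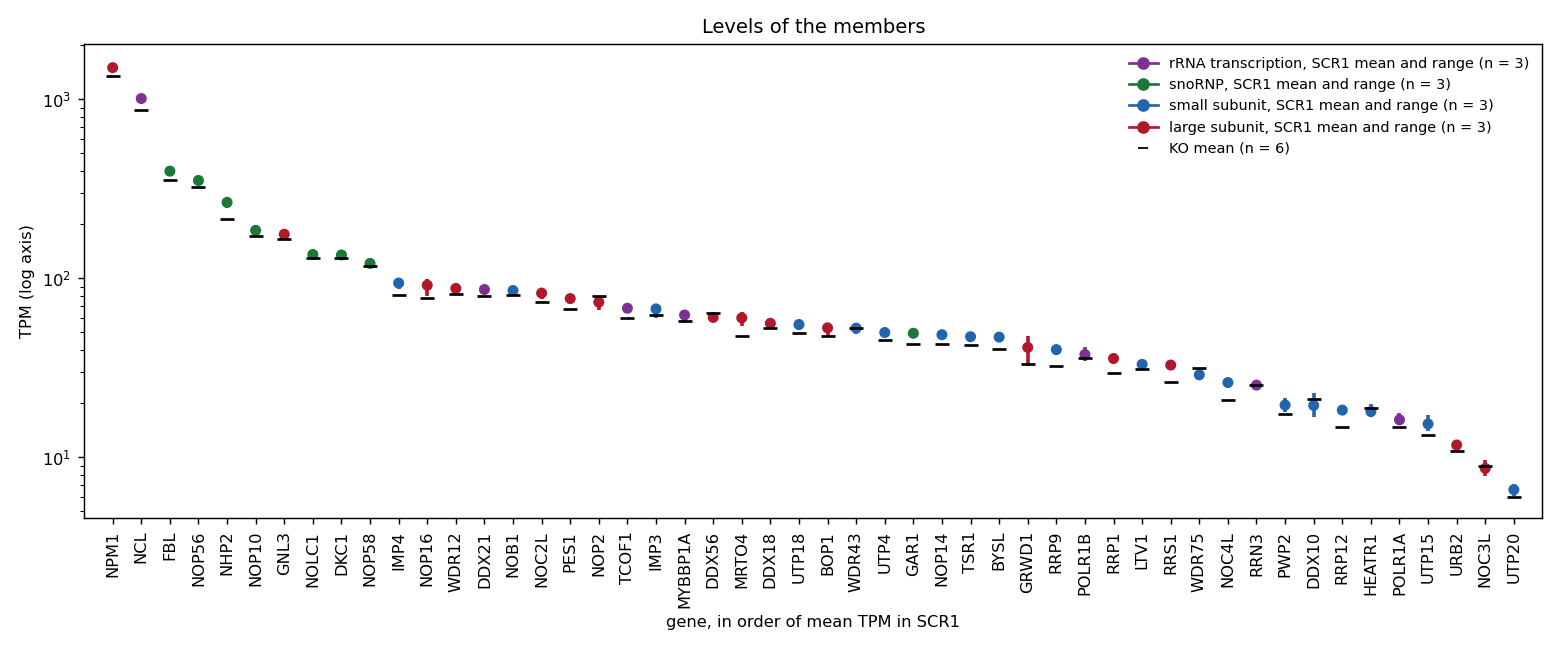
Mean TPM (log axis) of each member in SCR1 with the range over 3 libraries, in order of the level and coloured by step, and the mean over 6 KO libraries as a dash. NPM1 and NCL stand highest, at 1503 and 1010 TPM, the snoRNP genes are mostly in the upper part of the order, and KO means lie just below SCR1 for most genes.

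To ask whether targeting the enhancer changed these genes, levels in the 6 KO libraries were set against those in the 3 SCR1 libraries. Of the 50 members, 17 were lower at an adjusted p under 0.05 in edgeR and 0 were higher, while 33 did not pass. Over all genes tested, 10.6% were lower and 10.1% were higher. Without adjustment, 31 members had a p under 0.05 as lower and 1 as higher, and over all genes 17.2% were lower and 16.3% higher by that rule. DESeq2 called 22 members lower and 0 higher, against 12.2% lower and 11.7% higher of the genes to which it gave an adjusted p. The median log2 fold change was -0.14 over the members and 0.0028 over all genes tested, and 45 of 50 members had a negative value. Every change was small, from -0.34 for MRTO4 to 0.10 for DDX56 on the log2 scale. In 15 members each KO library lay below each SCR1 library, a pattern shown by 10.2% of all genes tested. In bulk RNA, less transcript per cell and fewer cells with the transcript cannot be told apart.

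**Figure D2:**
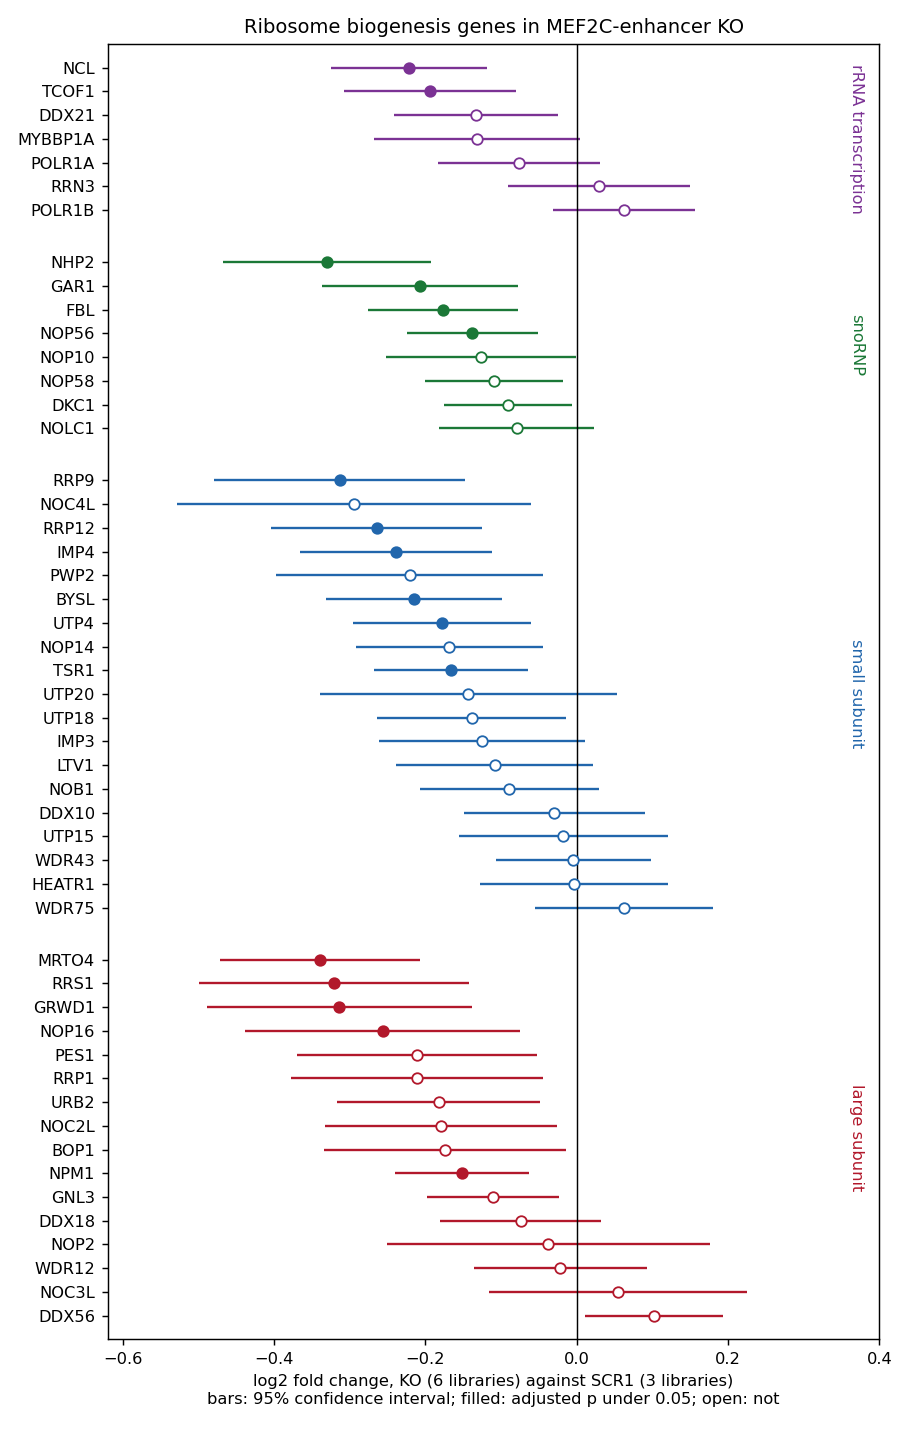
Log2 fold change of each member in KO (n = 6) against SCR1 (n = 3) with its 95% confidence interval, grouped by step and ordered within it. Filled points passed an adjusted p of 0.05 in edgeR, and all 17 of them lie left of 0, from MRTO4 at -0.34 to NOP56 at -0.14.

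The number of members called depended on single control libraries. It fell to 4 without SCR1 replicate 1 and to 8 without SCR1 replicate 4, and was 21 without SCR1 replicate 3, the control with the lowest members. Leaving out sgRNA_96 replicate 1, which stood apart over all genes, gave 24, and leaving out sgRNA_97 replicate 1, which also did, gave 19. The median log2 fold change of the members stayed between -0.17 and -0.13 under all 21 alternatives. The direction of the 17 called members was negative under each of them, but 0 of the 17 passed under every one. MRTO4, NHP2 and NCL came closest, each past the threshold under 20 of the 21. Of the 33 members not called, 18 passed under at least 1 alternative, most often PES1 and URB2, each under 8 of the 21. Tests on log2(TPM + 1) with limma called 5 members, and an offset for the mean transcript length of each gene in each library left 7. Here and below, counts under alternatives other than DESeq2 are given without the share of all genes tested. Shifts in these counts are therefore not shown to be particular to the members.

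Library by library, the median member was at -0.07 in sgRNA_96 replicate 1, -0.19 in replicate 3 and -0.11 in replicate 4, as log2 CPM relative to the SCR1 mean. With sgRNA_97 it was at -0.09, -0.21 and -0.13 in replicates 1, 3 and 4. The SCR1 libraries were at 0.04, -0.07 and 0.03. SCR1 replicate 3 and sgRNA_96 replicate 1 therefore had the same median at this precision, and the other 5 KO libraries were lower than all controls. Within every guide the median was highest in replicate 1 and lowest in replicate 3. Each KO library lay below the SCR1 library of the same number. The cause of this shared order was not tested. Between 39 and 46 of the 50 members lay below the SCR1 mean in each KO library, and in SCR1 replicate 3 this was also true of 39 members. The summed CPM of all members, of which NCL and NPM1 form a large part, was 7118 to 7767 in KO and 7941 to 8501 in SCR1, with no overlap.

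**Figure D3:**
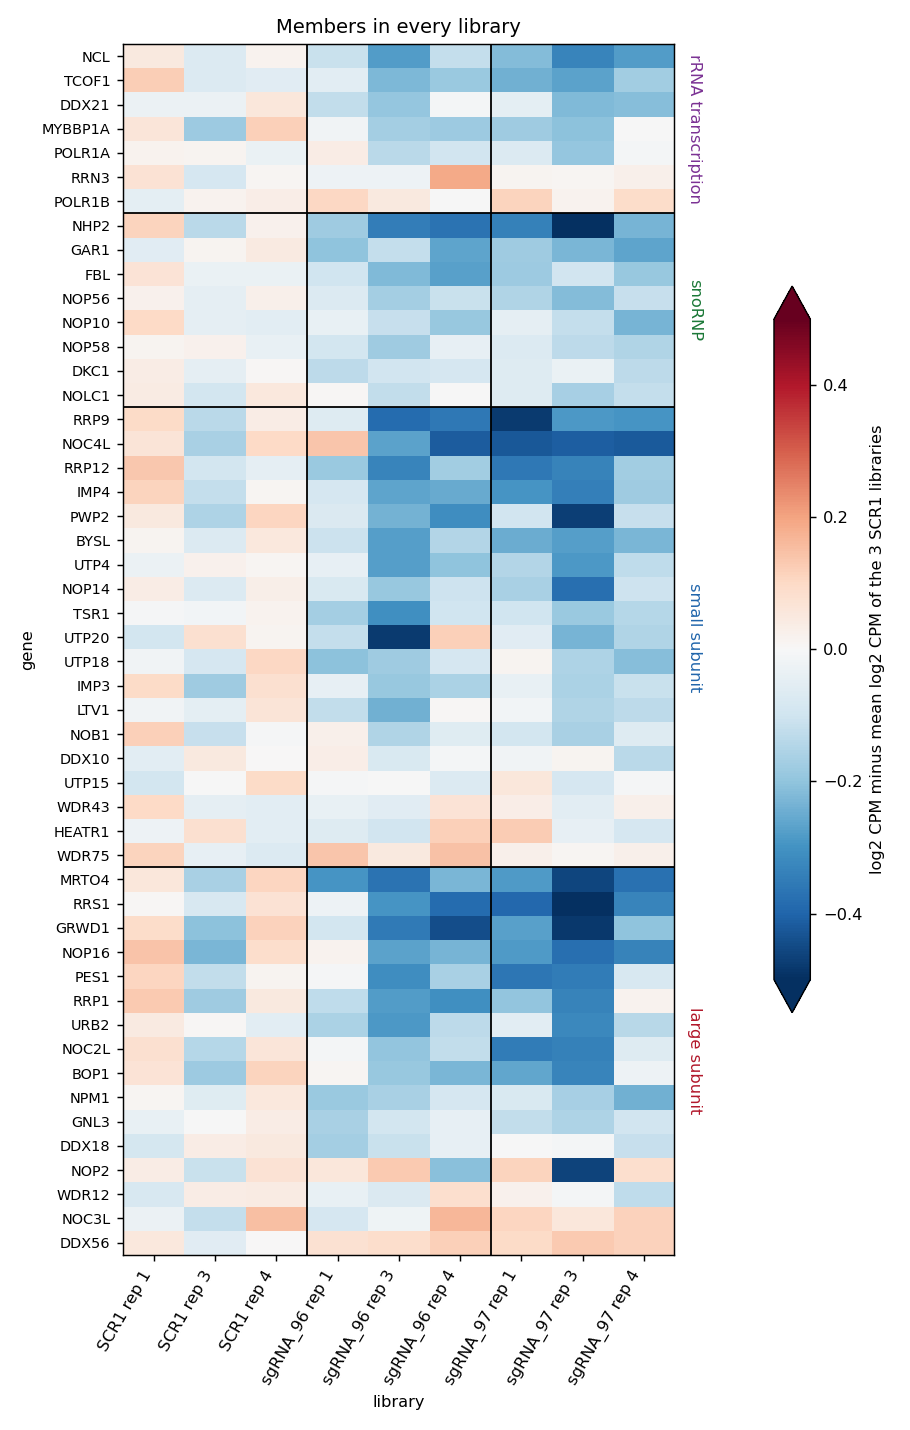
Log2 CPM of each member (rows, grouped by step) in each of the 9 libraries (columns), minus the mean of the 3 SCR1 libraries, with blue for lower and red for higher and the scale ending at 0.5. Blue prevails in the 6 KO columns, most in sgRNA_97 replicate 3, whose median was -0.21, and SCR1 replicate 3, with a median of -0.07, is the bluest of the control columns.

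Among the 7 genes of rRNA transcription, NCL and TCOF1 fell, and DDX21, MYBBP1A, POLR1A, RRN3 and POLR1B did not pass the test. NCL (ENSG00000115053.17, minus strand of chromosome 2, 231453531 to 231483641 on hg38) encodes nucleolin, which binds rDNA chromatin and nascent pre-rRNA. It was at 1895, 1747 and 1850 CPM in SCR1 replicates 1, 3 and 4, at 1692, 1506 and 1685 CPM with sgRNA_96 and at 1573, 1456 and 1507 CPM with sgRNA_97. Every KO library lay below every control. Mean NCL was 1831 ± 75.98 CPM (SD, n = 3) in SCR1 and 1570 ± 99.42 CPM (SD, n = 6) in KO, and the log2 fold change was -0.22 (SE 0.05, adjusted p 0.00456 in edgeR). TCOF1 encodes treacle, a nucleolar scaffold of RNA polymerase I, and was at 258, 226 and 227 CPM in SCR1, 228, 202 and 208 CPM with sgRNA_96 and 200.4, 197 and 210 CPM with sgRNA_97. Only sgRNA_96 replicate 1 reached the control range. TCOF1 fell by 0.19 on the log2 scale (SE 0.05, adjusted p 0.0179 in edgeR), and without SCR1 replicate 1, its highest library, it did not pass. DDX21, an RNA helicase that binds RNA polymerase I and II genes, was at 295, 295 and 313 CPM in SCR1, 276, 263 and 299 CPM with sgRNA_96 and 291, 258 and 260 CPM with sgRNA_97. The groups of DDX21 overlapped through sgRNA_96 replicate 4, and its log2 fold change was -0.13 (SE 0.05, adjusted p 0.0770 in edgeR). The genes of the enzyme itself and of its initiation factor did not pass, and each interval held 0. POLR1A, which encodes the largest subunit of the polymerase, had a log2 fold change of -0.08 (95% interval -0.18 to 0.03), its partner POLR1B 0.06 (-0.03 to 0.16) and RRN3, which recruits the polymerase to the promoter, 0.03 (-0.09 to 0.15).

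All 8 snoRNP genes had negative fold changes and 4 passed, NHP2, FBL, GAR1 and NOP56. NHP2 (ENSG00000145912.10, minus strand of chromosome 5, 178149463 to 178153894) encodes a core protein of the H/ACA particle that also belongs to telomerase. It had 131, 111 and 123 CPM in SCR1, 107, 95.3 and 93.8 CPM with sgRNA_96 and 95.97, 85.8 and 103 CPM with sgRNA_97. Its groups did not overlap. Mean NHP2 was 122 ± 10.26 CPM (SD, n = 3) in SCR1 and 96.9 ± 7.51 CPM (SD, n = 6) in KO. The fitted level decreased by 20.5%, which is -0.33 on the log2 scale (SE 0.07, adjusted p 0.00211 in edgeR). RMND5B lies on the opposite strand over part of NHP2, and the sources used here do not give whether reads were counted by strand. FBL was at 244, 227 and 227 CPM in SCR1, 217, 199 and 192 CPM with sgRNA_96 and 205, 217 and 204 CPM with sgRNA_97. Again no KO library reached the controls, and the log2 fold change of FBL was -0.18 (SE 0.05, adjusted p 0.0142 in edgeR). GAR1, another H/ACA protein, had 29.4, 30.9 and 31.6 CPM in SCR1 against 26.7, 28.2 and 25.5 CPM with sgRNA_96 and 27.1, 26.1 and 25.5 CPM with sgRNA_97. Its groups were also separate, with a log2 fold change of -0.21 (SE 0.06, adjusted p 0.0249 in edgeR). Within the box C/D core, NOP56 fell, with a log2 fold change of -0.14 (adjusted p 0.0250 in edgeR), while NOP58 was at -0.11 and did not pass (adjusted p 0.0829 in edgeR). Within the H/ACA core, NOP10 at -0.13 and DKC1, the pseudouridine synthase, at -0.09 did not pass, and neither did the snoRNP chaperone gene NOLC1 at -0.08. FBL, NOP56 and TCOF1 lost their calls without SCR1 replicate 1. NOP56 and GAR1 lost theirs without SCR1 replicate 4, and GAR1 also without SCR1 replicate 3.

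Of 19 small subunit genes, 6 were lower and 18 had negative fold changes. RRP9 (ENSG00000114767.7, minus strand of chromosome 3, 51933429 to 51941904) encodes a protein of the U3 snoRNP, which guides the first cuts of the precursor. It was at 45.7, 38.9 and 43.8 CPM in SCR1, 40.8, 32.7 and 33.3 CPM with sgRNA_96 and 30.6, 34.95 and 34.7 CPM with sgRNA_97. Replicate 1 of sgRNA_96 was the only KO library within the control range. Mean RRP9 was 42.8 ± 3.50 CPM (SD, n = 3) in SCR1 and 34.5 ± 3.45 CPM (SD, n = 6) in KO, and its log2 fold change was -0.31 (SE 0.08, adjusted p 0.0101 in edgeR). RRP12, a factor in nuclear export of pre-ribosomes, was at 51.6, 44.1 and 45.5 CPM in SCR1, 41.2, 37.4 and 41.6 CPM with sgRNA_96 and 36.7, 37.2 and 41.6 CPM with sgRNA_97, without overlap. Its log2 fold change was -0.26 (SE 0.07, adjusted p 0.0101 in edgeR). IMP4, which binds U3 together with IMP3, had 117, 99.9 and 109 CPM in SCR1, 102, 90.5 and 91.2 CPM with sgRNA_96 and 88.6, 85.6 and 95.9 CPM with sgRNA_97. It was the small subunit gene with the highest TPM, 5 of its 6 KO libraries lay below all controls, and it fell by 0.24 on the log2 scale (SE 0.06, adjusted p 0.0102 in edgeR). BYSL (-0.21, adjusted p 0.0116 in edgeR) and TSR1 (-0.17, adjusted p 0.0222), both factors of late 40S maturation, and UTP4 (-0.18, adjusted p 0.0320) also passed, and none of their KO values reached a control. All 6 of these calls were lost without SCR1 replicate 1, and those of BYSL, TSR1 and UTP4 also without SCR1 replicate 4. TSR1 and UTP4 further lost theirs without SCR1 replicate 3, and UTP4 without replicate 3 or 4 of sgRNA_96 or replicate 3 of sgRNA_97.

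The remaining 13 small subunit genes did not pass. NOP14 (-0.17, adjusted p 0.0519 in edgeR), NOC4L (-0.29, 0.0707) and PWP2 (-0.22, 0.0724) were nearest the threshold. NOC4L, the partner of NOP14, was at 20.6 to 22.9 CPM in 5 KO libraries and at 30.4 CPM in sgRNA_96 replicate 1, above every control (24.6 to 29.6 CPM). Among the 5 members assigned to the subcomplex that joins rDNA transcription to processing, UTP4 was the only one called. Genes of this subcomplex outside the member list are not counted here. The other 4 were WDR43 (-0.0046, 95% interval -0.11 to 0.10), HEATR1 (-0.0033, -0.13 to 0.12), UTP15 (-0.02, -0.16 to 0.12) and WDR75 (0.06, -0.06 to 0.18), and each interval holds 0. Of the others, UTP20, UTP18, IMP3, LTV1, NOB1 and DDX10 had log2 fold changes from -0.14 to -0.03.

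Of 16 large subunit genes, 5 were lower, MRTO4, RRS1, GRWD1, NPM1 and NOP16. MRTO4 (ENSG00000053372.5, plus strand of chromosome 1, 19251805 to 19260128), a placeholder for the ribosomal stalk protein in pre-60S particles, had the smallest adjusted p of all members. It was at 87.5, 75.0 and 90.5 CPM in SCR1, 68.5, 65.1 and 71.8 CPM with sgRNA_96 and 69.2, 61.2 and 64.9 CPM with sgRNA_97, and every KO value was below every control. Mean MRTO4 was 84.3 ± 8.20 CPM (SD, n = 3) in SCR1 and 66.8 ± 3.76 CPM (SD, n = 6) in KO. The fitted level decreased by 21.0%, which is -0.34 on the log2 scale (95% interval -0.47 to -0.21, adjusted p 0.00128 in edgeR). RRS1, which brings the 5S particle into the pre-60S, was at 39.7, 37.5 and 41.6 CPM in SCR1, 38.9, 32.3 and 30.3 CPM with sgRNA_96 and 30.1, 27.5 and 31.5 CPM with sgRNA_97. Here sgRNA_96 replicate 1 fell within the controls, and the log2 fold change was -0.32 (SE 0.08, adjusted p 0.0133 in edgeR). GRWD1, a chaperone for the ribosomal protein RPL3, was at 76.7, 62.4 and 78.0 CPM in SCR1, 67.7, 56.4 and 53.0 CPM with sgRNA_96 and 59.6, 51.6 and 62.6 CPM with sgRNA_97. Its replicate 3 in SCR1 was lower than a KO library of each guide, and the log2 fold change was -0.31 (SE 0.08, adjusted p 0.0139 in edgeR). GRWD1 overlaps KCNJ14 on the same strand, which makes its count less certain.

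NPM1 (ENSG00000181163.14, plus strand of chromosome 5, 171387116 to 171411810) was at 1366, 1303 and 1408 CPM in SCR1, 1194, 1213 and 1280 CPM with sgRNA_96 and 1290, 1211 and 1150 CPM with sgRNA_97. The groups did not overlap, and NPM1 fell by 0.15 on the log2 scale (SE 0.04, adjusted p 0.0172 in edgeR). It has 49 annotated pseudogenes named after it, so its count rests on how reads were divided among near-identical copies. NOP16 fell by 0.26 on the log2 scale with an adjusted p of 0.0437 in edgeR, and sgRNA_96 replicate 1 was well above its other KO libraries, at 51.8 CPM against 39.4 to 43.5 CPM. RRS1, GRWD1, NPM1 and NOP16 lost their calls without SCR1 replicate 1 and without SCR1 replicate 4. NOP16 also lost its call when any KO library other than sgRNA_96 replicate 1 was left out. The PES1, BOP1 and WDR12 genes, whose proteins form a complex needed for 28S maturation, did not pass, at -0.21 (adjusted p 0.0557 in edgeR), -0.17 (0.117) and -0.02 (0.817). URB2 (-0.18, 0.0511), RRP1 (-0.21, 0.0679), GNL3 or nucleostemin (-0.11, 0.0686) and NOC2L (-0.18, 0.0916) were likewise above the threshold. DDX18 (-0.07), NOP2 (-0.04) and NOC3L (0.05) were close to 0, and NOP2 had the widest interval of these, from -0.25 to 0.18. DDX56, an RNA helicase, was the member with the highest fold change, at 93.1 to 96.7 CPM in all KO libraries and 84.9 to 91.8 CPM in SCR1. Its log2 fold change of 0.10 (95% interval 0.01 to 0.19) had an adjusted p of 0.107 in edgeR and did not pass.

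**Figure D4:**
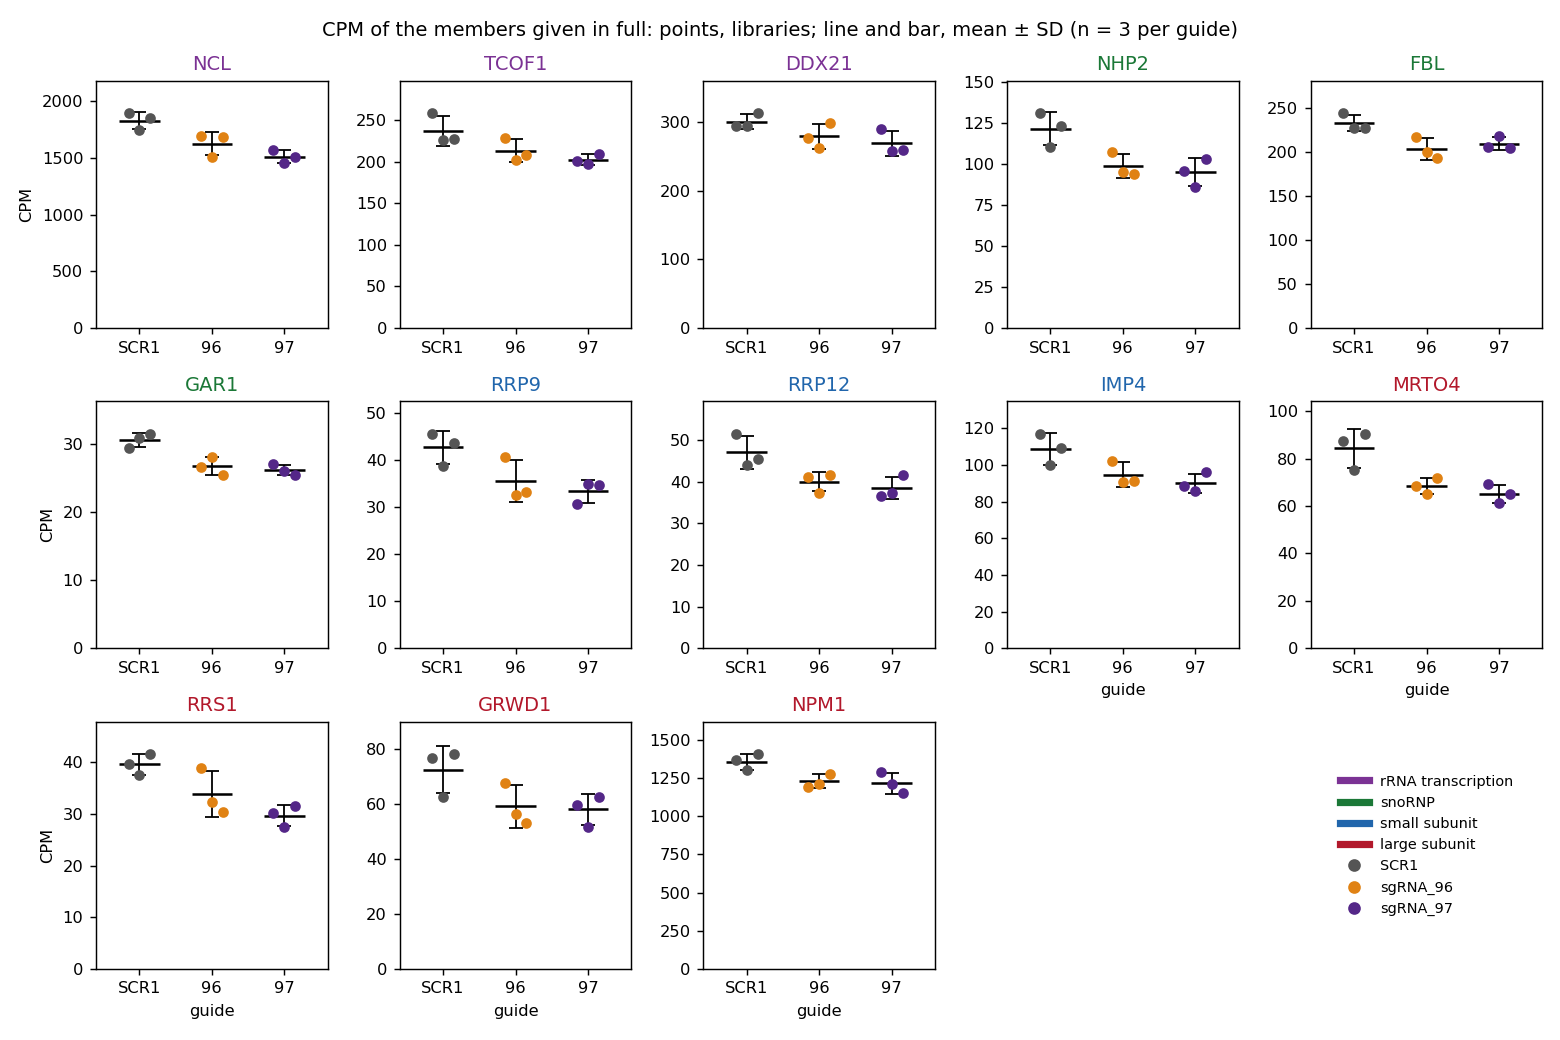
CPM per library of the 13 members with the smallest adjusted p or highest TPM of their step, by guide, with the mean and SD (n = 3 per guide) and axes that start at 0. Most values with either guide lie below SCR1, as for MRTO4 with 75.0 to 90.5 CPM in SCR1 and 61.2 to 71.8 CPM in KO.

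To see whether both guides moved these genes, each was compared with SCR1 in a fit with 3 groups. The guides share the 3 SCR1 libraries, so their comparisons are not independent. With sgRNA_96, 4 members were lower and 0 higher, where 5.41% of all genes tested were lower and 5.78% higher. They were MRTO4 (-0.30, adjusted p 0.0156 in edgeR), NHP2 (-0.30, 0.0210), FBL (-0.20, 0.0337) and TSR1 (-0.19, 0.0451). With sgRNA_97, 15 were lower and 0 higher, where 7.76% of all genes were lower and 7.35% higher, led by NCL (-0.28, adjusted p 0.00302), MRTO4 (-0.38, 0.00366), NHP2 (-0.36, 0.00695) and RRS1 (-0.42, 0.00728). NOC4L (-0.43, 0.0272) and NOP14 (-0.21, 0.0454) passed with sgRNA_97 and not in the pooled comparison. Unadjusted, 20 members were lower and 0 higher with sgRNA_96, against 13.4% and 13.3% of all genes, and 28 were lower and 1 higher with sgRNA_97, against 15.4% and 14.5%. DESeq2 called 8 members lower and 0 higher with sgRNA_96, against 7.03% and 7.22% of genes, and 19 lower and 0 higher with sgRNA_97, against 9.15% and 8.2%. The median log2 fold change was -0.13 with sgRNA_96 and -0.15 with sgRNA_97.

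The guides themselves did not differ by test in any member. In sgRNA_97 against sgRNA_96, 0 members passed in edgeR, 0 had an unadjusted p under 0.05 and 0 passed in DESeq2, while over all genes 0.0208%, 3 genes, passed in edgeR, 3.48% had an unadjusted p under 0.05 and 0.0554% passed in DESeq2. The median difference was -0.03, and the differences ran from -0.25 for NOC4L to 0.07 for RRP1. The larger number of calls with sgRNA_97 is thus not shown to be a larger effect. The sgRNA_96 count was 11 without sgRNA_96 replicate 1, 0 without its replicate 3, 2 without its replicate 4, 0 without SCR1 replicate 1 or replicate 4 and 7 without SCR1 replicate 3. The sgRNA_97 count was 9 without sgRNA_97 replicate 1, 5 without its replicate 3, 4 without SCR1 replicate 1 and 6 without SCR1 replicate 4.

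A list of 129 other ribosome biogenesis genes, none of them a member, was examined next. All were tested, and 28 (21.7%) were lower and 3 (2.33%) higher in KO against SCR1. Of all genes tested, 10.6% were lower and 10.1% higher. The median log2 fold change of the list was -0.10. Without SCR1 replicate 1 the count was 8 lower and 1 higher, and without SCR1 replicate 4 it was 14 and 2. By step, 2 of 13 other genes of rRNA transcription, 2 of 10 of snoRNPs, 9 of 40 of the small subunit, 13 of 51 of the large subunit and 2 of 15 of pre-rRNA trimming were lower. The smallest adjusted p among those that fell were in the large subunit genes EBNA1BP2 (-0.43, adjusted p 0.000141 in edgeR), WDR18 (-0.45, 0.00140) and PA2G4 (-0.24, 0.00144). EBNA1BP2 was at 70.7 to 78.0 CPM in SCR1 and at 50.9 to 59.96 CPM in KO, and passed under all 21 alternatives. The genes that rose were BAZ2A (0.27, adjusted p 0.000499 in edgeR), a subunit of the nucleolar remodeling complex that silences rDNA copies, TAF1D (0.18, 0.0142), part of the RNA polymerase I promoter factor SL1, and MDN1 (0.13, 0.0481), the AAA ATPase that strips factors from pre-60S particles. TAF1D passed no longer without SCR1 replicate 1, and MDN1 did not pass when any library other than sgRNA_96 replicate 1 was left out.

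Genes of the finished ribosome's own proteins were compared because they are the nearest list by function. Of 79 cytosolic ribosomal protein genes, 1 was lower and 3 were higher in edgeR, where 10.6% and 10.1% of all genes were. Without adjustment 1 was lower and 14 higher, against 17.2% and 16.3% of all genes, and in DESeq2 1 was lower and 7 higher, against 12.2% and 11.7%. Their median log2 fold change was 0.03 against -0.14 over the members. With sgRNA_96 0 passed in edgeR, where 5.41% of all genes were lower and 5.78% higher. Unadjusted, 1 was lower and 3 were higher, against 13.4% and 13.3% of all genes. DESeq2 called 0 lower and 1 higher, against 7.03% and 7.22%, and the median was 0.01. With sgRNA_97 1 was lower and 3 were higher in edgeR, against 7.76% and 7.35% of all genes. Unadjusted, 1 was lower and 19 were higher, against 15.4% and 14.5%. DESeq2 called 1 lower and 8 higher, against 9.15% and 8.2%, and the median was 0.05. The difference between the lists was not tested.

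Within the members, fold changes were lower in genes of higher GC content. GC content was taken over the exons of the longest annotated transcript of each gene. The 25 members with a GC content at or above the median of all genes tested, 47.93%, had a median log2 fold change of -0.19 and 11 of them were lower. The 25 below it had a median of -0.11 and 6 were lower. Over all genes tested, 13.3% of those at or above that GC content and 7.81% of those below it were lower, with medians of -0.04 and 0.04. Spearman's correlation of GC content with the log2 fold change was -0.62 over the 50 members and -0.20 over all genes tested, given as a description because the genes share the same 9 libraries. Median GC was 51.76% in the 17 called members and 45.15% in the other 33. Exon length had a correlation of 0.32 over the members and 0.13 over all genes. With an offset for the GC trend of each library, 25 members were lower and 1 was higher. The part of base composition in the fold changes was not tested beyond this.

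**Figure D5:**
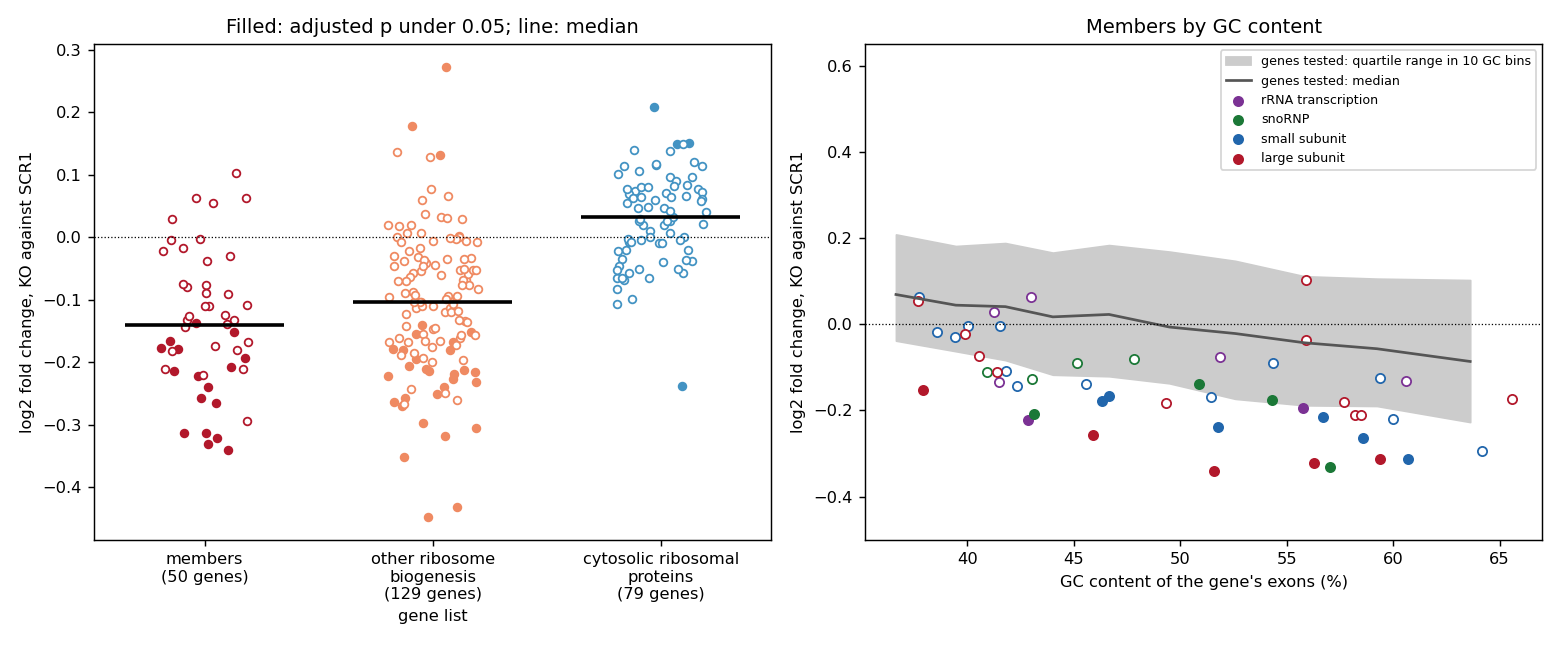
Left, log2 fold change in KO against SCR1 of the members, of other ribosome biogenesis genes and of cytosolic ribosomal protein genes, with the median as a line at -0.14, -0.10 and 0.03 and filled points for an adjusted p under 0.05. Right, the members by GC content of the exons of their longest annotated transcript, over the median and quartiles of all genes tested in 10 bins, with most members below the median line and the lowest of them at high GC.

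Members with and without the E-box were described side by side. Of the 20 with CACGTG in a promoter window, 7 were lower and the median log2 fold change was -0.16, and of the 22 without it 7 were lower and the median was -0.11. Of all genes tested, 14.8% of the 1265 with the motif were lower, with a median of -0.03, and 12.2% of the 8844 without it, with a median of -0.0061. The difference between members with and without it was not tested. In the small subunit, 4 of 10 genes with the motif and 1 of 8 without it were lower, and in the large subunit 1 of 5 with it and 3 of 7 without it. In rRNA transcription these were 0 of 2 and 1 of 4, and in snoRNPs 2 of 3 and 2 of 3. Among other ribosome biogenesis genes with a window, 10 of 28 with the motif were lower, with a median of -0.15. Of those without it 13 of 84 were lower, with a median of -0.095, and this difference was not tested either. The remaining 8 members had no matched window and are not counted here, and 3 of them, TCOF1, RRP12 and RRS1, were lower.

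Some members also host small nucleolar RNA genes in their introns. Same-strand snoRNA genes lay inside 7 members (NCL, NOP56, NOP58, DKC1, WDR43, TSR1 and GNL3), 25 in all, and 3 of these hosts, NCL, NOP56 and TSR1, were lower. Host transcripts were measured here by poly(A) selection, and mature snoRNAs and rRNA, which carry no poly(A) tail, were not. In annotation, 7 members overlap another gene model on the same strand and 21 on the opposite strand, which makes their counts less certain. Among those that were lower, UTP4, RRP12, RRS1 and GRWD1 have a same-strand overlap, and NHP2, UTP4, TSR1, RRP12, NOP16 and RRS1 an opposite-strand one. The 50 genes are spread over 19 chromosomes.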

How the data were processed

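The authors trimmed paired reads of poly(A)-selected TruSeq libraries with TrimGalore, aligned them to hg38 with STAR and quantified transcripts with Salmon (1.10.1 per the submitters' processing notes) in the nf-core workflow. They deposited estimated counts per transcript, not normalized, and TPM. All 252835 transcripts matched GENCODE 44 by gene, so that release gave symbols and positions. Salmon divides reads shared by transcripts by likelihood, and 87.78% of deposited estimated counts above 0 were not whole. Counts were summed per gene and rounded. Genes were kept by filterByExpr (minimum count 10), scaled by TMM and tested in edgeR 4.0.16 (quasi-likelihood, R 4.3.3). P values were adjusted over 14436 genes by Benjamini and Hochberg, and 0.05 was the threshold. KO against SCR1 was fitted in 2 classes, and the guides in a model of 3 groups. Standard errors are on the log2 scale and intervals are 95%.

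Members, their steps and the other lists were chosen with earlier results of these data known. A further erythroid marker is not reported here. Values in every library were given, per step, for the 3 members with the smallest adjusted p in KO against SCR1, the member with the highest TPM in SCR1 and any called against most of its step. Of the other ribosome biogenesis genes, the 3 with the smallest adjusted p in each direction were named. Alternatives were DESeq2 1.42.0, limma 3.58.1 on log2(TPM + 1) or log2(TPM + 0.1), other scalings, other filters (none, or a minimum count of 50), offsets for gene length, the length trend and the GC trend, a replicate block and each library left out. Replicate pairs differed by more than sampling noise, with chi-square over its degrees of freedom from 4.36 to 8.82. The tests were tried on simulated counts. The first criterion, a share of changed genes recovered over all expression levels, was missed because genes of low counts were not detected. After that result it was replaced by a criterion at the expression levels of the members, which was met. Recovery of fold changes as small as those of the members was not tested.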

Additional observations from a re-analysis of the deposited data

Results flagged for a closer look

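Each of the 50 members and 6 other ribosome biogenesis genes named above was checked for a single library far from the rest among the 6 KO libraries, by the gap to its neighbour over the whole range. Of these 56 values 4 stood apart, where chance would give about 2.8 if the values were independent. They are not, because all the genes share the same 6 libraries. In sgRNA_96 replicate 1, NOC4L was at 30.39 CPM against 20.6 to 22.9 CPM in the other 5 KO libraries, NOP16 at 51.76 CPM against 39.4 to 43.5 CPM and PA2G4 at 430.4 CPM against 381 to 399 CPM. All 3 were nearer to the SCR1 values there than in the other KO libraries. In sgRNA_96 replicate 4, RRN3 was at 73.35 CPM against 63.2 to 65.5 CPM. No explanation of these values was tested. Without sgRNA_96 replicate 1, 24 members were lower in KO against SCR1 in place of 17.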

How the results depend on the processing

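Of the 21 alternatives, planned together, the 3 limma fits changed the measure and the test together, 1 of them also the filter, and DESeq2 the scaling and the test, so their shifts belong to no single choice. The median log2 fold change of the members in KO against SCR1 stayed within 1 SD of the KO libraries (0.055) in all of them, and from -0.17 to -0.13 when a library was left out. The number of members called in KO against SCR1, 17, was 26 with no expression filter, 5, 5 and 1 with limma on log2(TPM + 1), on log2(TPM + 0.1) and on log2(TPM + 1) without a filter, 7 with the gene length offset and 26 with the GC trend offset, and from 4 to 24 when a library was left out. DESeq2 gave 22 and both other scalings 17. For sgRNA_96, 4 became 10 with no filter, 8 with DESeq2, 0 in each of the 3 limma fits, 1 with the gene length offset, 10 with the GC trend offset and 0 to 11 with a library left out. For sgRNA_97, 15 became 5, 5 and 0 in the limma fits, 5 with the gene length offset, 24 with the GC trend offset and 4 to 19 with a library left out. The count for sgRNA_97 against sgRNA_96 was 0 in all 21. The 31 other ribosome biogenesis genes called became 10, 10 and 4 in the limma fits, 13 with the gene length offset and 9 to 41 with a library left out. Apart from DESeq2, these counts are given without the share of all genes tested, so the shifts are not shown to be particular to these genes. The cause of the shifts was not tested.

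Of the 17 called members, 17 kept their direction under all alternatives. Members that were not called changed sign as follows, and no such value passed. Under the gene length offset, and with limma on log2(TPM + 1), on log2(TPM + 0.1) and on log2(TPM + 1) without a filter, POLR1B was at -0.070, -0.065, -0.067 and -0.065, HEATR1 at 0.068, 0.066, 0.069 and 0.066, WDR43 at 0.0036, 0.0068, 0.0068 and 0.0068, DDX10 at 0.13 in each and NOP2 at 0.11 in each. With the GC trend offset RRN3 was at -0.0075, NOP2 at 0.0060 and NOC3L at -0.0056, with the length trend offset WDR43 was at 0.028, with a minimum count of 50 HEATR1 was at 0.00045, and with upper-quartile scaling HEATR1 was at 0.0091 and WDR43 at 0.0082. MDN1, which is not a member and had been called higher, was at -0.012 with the length trend offset and not past the threshold. With a library left out, WDR43 ranged from -0.032 to 0.049, HEATR1 from -0.033 to 0.037, RRN3 from -0.0086 to 0.068, UTP15 from -0.066 to 0.032 and NOP2 from -0.087 to 0.034.

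Over all genes tested, replicate numbers showed no pairing of the samples. Same-numbered libraries deviated together with correlations of only -0.066 to 0.055, and 1 of 9 libraries correlated best with its own number. The members did share an order, with the highest median in replicate 1 and the lowest in replicate 3 of every guide. Whether the members' values were paired by replicate was not tested. A replicate block gave 22 members called in KO against SCR1, 6 with sgRNA_96, 16 with sgRNA_97, 0 between the guides and 33 other ribosome biogenesis genes, with a median of -0.14 over the members. The lowest member count in a library was 297, and the part of depth in the results was not tested. With 3 control libraries the counts of calls depend on them.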
